A study of Mus musculus with 12 samples.

Results

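Macrophages grown from the bone marrow of naïve female FVB mice were exposed for 4 h to IFNG (interferon gamma, 200 units/mL), the cytokine of classical activation, or to IL4 (interleukin 4, 40 ng/mL), the cytokine of alternative activation. For each cytokine, mRNA carrying more than 3 ribosomes was collected from a 5 to 50% sucrose gradient (polysome mRNA), and about 10% of the cells gave total mRNA. The 4 groups were thus IFNG polysome, IL4 polysome, IFNG total and IL4 total, with 3 SmartSeq2 libraries each and 12 in all. No untreated macrophages were among the samples, so every difference between the cytokines is IFNG relative to IL4.

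The genes described here are 38 genes of sterol and fatty acid metabolism, taken from a written list and looked up by symbol among the 19549 features of the count tables. They comprise 7 genes of the mevalonate pathway, 12 genes from squalene onwards, 5 genes of the SREBP machinery, 2 LXR receptors, 3 LXR target genes that move or limit cholesterol, 4 genes of sterol transport and storage, Ch25h, and 4 genes of fatty acid synthesis. All 38 were found and all 38 passed the filter on low counts, among 10421 features tested. Fdft1, Srebf1, Tm7sf2 and Npc1 occur only as 1 part of a feature that joins 2 symbols (Ctsb with Fdft1, Rai1 with Srebf1, Tm7sf2 with Vps51, 3110002H16Rik with Npc1), so the reads of each pair cannot be told apart.

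Cells make cholesterol from acetyl-CoA through mevalonate, farnesyl diphosphate, squalene and lanosterol. The transcription factor SREBP2 (gene Srebf2) switches on most enzymes of the route, and the escort protein SCAP and the anchors INSIG1 and INSIG2 keep it in the endoplasmic reticulum while sterols are plentiful. LXR receptors respond to oxysterols and switch on cholesterol export, and 25-hydroxycholesterol, the product of the enzyme Ch25h, is known both as a brake on SREBP processing and as an interferon-linked product of macrophages.

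With IFNG, 3 of 7 mevalonate genes and 2 of 12 later sterol synthesis genes were called lower than with IL4 in total mRNA, and 5 of 7 and 2 of 12 in polysome mRNA, while Ch25h and the LXR targets Abcg1 and Mylip were higher in both fractions. The shares of all features called lower were 3.93% in total mRNA and 6.58% in polysome mRNA. Of 20 known SREBP2 targets among the 38 genes, 6 were called lower and 0 higher in total mRNA, and 8 were called lower and 0 higher in polysome mRNA. The median log2 fold change of those 20 was -1.14 in total mRNA and -1.37 in polysome mRNA, beside medians of 0.04 and -0.06 over all features tested. The 20 were the mevalonate genes, the later sterol synthesis genes except Lbr, and Insig1 and Stard4, with 2 (Fdft1 and Tm7sf2) counted in joined features. The lists were chosen with earlier results of these data known, so this contrast is a description and not a test. Ch25h rose 9.66-fold in total mRNA and 6.29-fold in polysome mRNA. Of 5 LXR targets, 2 were called higher in each fraction, with medians of 0.49 in total mRNA and 0.21 in polysome mRNA. Leaving out 1 library moved the LXR median between 0.07 (without IL4 total replicate 3) and 0.87 (without IL4 total replicate 2) in total mRNA, and between 0.04 (without IFNG polysome replicate 2) and 0.57 (without IFNG polysome replicate 1) in polysome mRNA.

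Calls are edgeR quasi-likelihood tests with Benjamini-Hochberg adjusted p under 0.05, over all features. Whether groups overlapped describes 3 libraries against 3 and is not a test. The share of all features without overlap is not given here, so lack of overlap in an uncalled gene is no evidence of a difference. Levels are CPM (the usual depth-scaled read counts, on TMM-scaled libraries), which are not corrected for gene length. Over all 38 genes, 7 were lower in total mRNA, beside 3.93% of all features, and 9 were lower in polysome mRNA, beside 6.58%. In the other direction, 3 genes were higher in total mRNA, beside 7.08% of all features, and 3 were higher in polysome mRNA, beside 7.54%. The 3 genes called higher, Abcg1, Mylip and Ch25h, were the same in both fractions. Whether the replicates were separate mice or cultures is not in the labels, and the p-values then describe only how these samples vary, perhaps technically. In bulk samples, fewer cells of a type and less RNA per cell cannot be told apart.

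**Figure D1:**
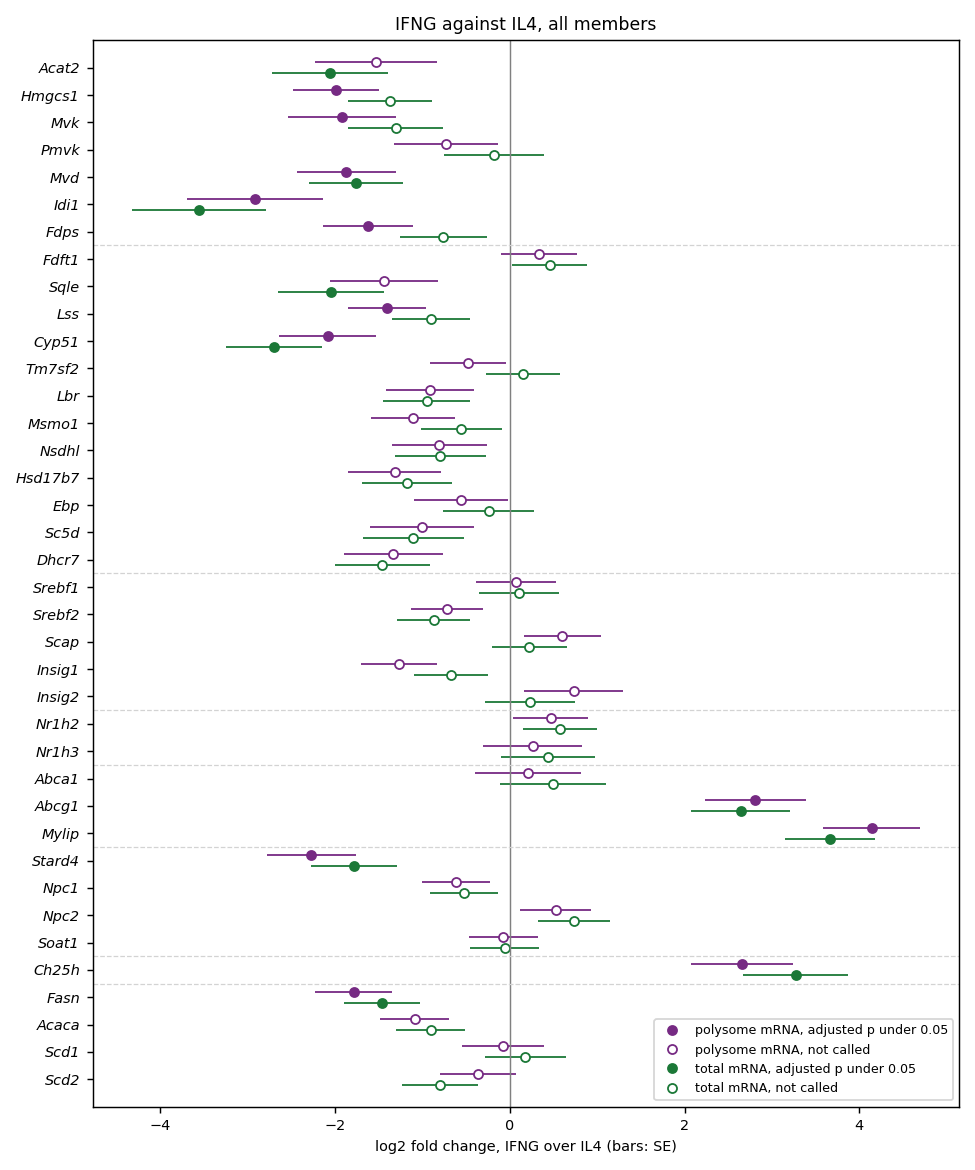
Log2 fold change of IFNG over IL4 (horizontal axis) for the 38 genes, in polysome mRNA (purple) and total mRNA (green), with bars of 1 SE and filled points for calls at an adjusted p under 0.05. Dashed lines separate the roles from mevalonate enzymes at the top to fatty acid genes at the bottom; the filled points left of 0 are sterol synthesis genes, Stard4 and Fasn, and those right of 0 are Abcg1, Mylip and Ch25h.

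The RefSeq promoter sequences of 5 genes are shown so that genes that moved in opposite directions can be set side by side: Hmgcs1, Idi1 and Cyp51, which were called lower with IFNG, and Mylip and Ch25h, which were called higher. Each line gives the 250 bases before the annotated start, 5′ to 3′ on the gene's own strand, in GRCm38.p6. The intervals are chr13:119690101-119690350 (plus strand) for Hmgcs1, chr13:8885356-8885605 (plus) for Idi1, chr5:4104698-4104947 (minus) for Cyp51, chr13:45389492-45389741 (plus) for Mylip and chr19:34475149-34475398 (minus) for Ch25h. Capitals mark CCAAT on either strand, the letters bound by the SREBP partner NF-Y, and TCACNCCAC, a sterol regulatory element.
Hmgcs1: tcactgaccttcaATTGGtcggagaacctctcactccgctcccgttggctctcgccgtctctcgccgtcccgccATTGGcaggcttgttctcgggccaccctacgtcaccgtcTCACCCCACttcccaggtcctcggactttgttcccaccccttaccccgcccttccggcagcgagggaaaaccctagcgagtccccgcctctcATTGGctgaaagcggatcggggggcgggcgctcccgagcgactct
Idi1: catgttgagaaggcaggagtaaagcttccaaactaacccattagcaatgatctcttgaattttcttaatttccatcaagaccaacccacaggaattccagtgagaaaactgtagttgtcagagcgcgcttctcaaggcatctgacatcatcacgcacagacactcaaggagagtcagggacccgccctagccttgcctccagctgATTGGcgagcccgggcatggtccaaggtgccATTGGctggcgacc
Cyp51: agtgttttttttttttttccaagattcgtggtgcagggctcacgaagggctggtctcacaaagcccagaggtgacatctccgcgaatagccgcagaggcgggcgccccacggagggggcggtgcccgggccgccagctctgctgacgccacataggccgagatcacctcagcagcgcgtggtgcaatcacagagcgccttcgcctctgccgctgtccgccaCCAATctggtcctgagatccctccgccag
Mylip: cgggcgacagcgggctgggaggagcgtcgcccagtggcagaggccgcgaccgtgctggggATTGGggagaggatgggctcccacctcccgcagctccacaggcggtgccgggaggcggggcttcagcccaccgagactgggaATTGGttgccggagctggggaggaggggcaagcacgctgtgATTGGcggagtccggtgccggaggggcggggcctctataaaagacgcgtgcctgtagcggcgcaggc
Ch25h: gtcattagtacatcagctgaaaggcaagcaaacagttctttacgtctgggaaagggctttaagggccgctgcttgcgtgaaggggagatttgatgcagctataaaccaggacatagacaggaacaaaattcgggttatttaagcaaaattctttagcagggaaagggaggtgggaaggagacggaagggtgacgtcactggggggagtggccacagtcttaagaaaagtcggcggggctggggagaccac

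Promoter entries matched 30 of the 38 genes, with 39 promoters, and 16 of the 20 SREBP2 targets, with 19 promoters. CCAAT on either strand occurred in 15 of the 19 SREBP2 target promoters (78.9%), and in 33.8% of the 32851 mouse promoters of the same length. TCACNCCAC occurred in 1 of the 19, that of Hmgcs1, 137 bases before the start, and in 1.05% of all promoters. GGGCGG, the core bound by Sp1, occurred in 84.2% of the 19 and in 32.7% of all promoters, and CACGTG, an E-box, in 21.1% and 6.02%. The Ch25h window held none of these 4 motifs, nor TTCNNNGAA or GAAANNGAA, letters of interferon-responsive elements, and the Mylip window held CCAAT at 3 places although Mylip moved the other way. A match of letters is a description and not a binding site.

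Mevalonate enzymes were the most uniformly low group. All 7 had estimates below 0 in both fractions, 3 were called lower in total mRNA and 5 in polysome mRNA. Idi1 (chromosome 13, 8885606 to 8892396), which isomerizes isopentenyl diphosphate, had 1.01, 0.233 and 1.04 CPM in the IFNG total libraries and 4.93, 7.23 and 16.0 CPM in the IL4 total libraries. On polysomes Idi1 had 2.20, 0.210 and 1.11 CPM with IFNG and 12.8, 13.5 and 2.65 CPM with IL4. The groups did not overlap in either fraction, and the IFNG polysome values rest on 25, 1 and 3 counts. Idi1 fell by 3.56 ± 0.77 (SE) on the log2 scale in total mRNA (adjusted p = 0.00271) and by 2.91 ± 0.78 on polysomes (adjusted p = 0.0136).

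Hmgcs1 (chromosome 13, 119690351 to 119708260), which makes HMG-CoA, had 6.17, 5.68 and 7.39 CPM in the IFNG polysome libraries and 25.9, 27.6 and 22.3 CPM in the IL4 polysome libraries. In total mRNA Hmgcs1 had 2.54, 2.44 and 7.34 CPM with IFNG and 13.0, 8.21 and 10.8 CPM with IL4. The polysome groups lay far apart and the total groups close to each other. Hmgcs1 fell by 1.99 ± 0.50 on polysomes (adjusted p = 0.00874), and its log2 difference of -1.37 ± 0.48 in total mRNA was not called (adjusted p = 0.0707, and 0.0414 with the replicate number as a block).

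Mvd, the decarboxylase that makes isopentenyl diphosphate, had 37.2, 13.4 and 7.69 CPM in the IFNG total libraries and 102, 65.0 and 30.2 CPM in the IL4 total libraries. These ranges overlapped. On polysomes Mvd had 10.1, 4.62 and 4.43 CPM with IFNG and 24.1, 27.6 and 20.8 CPM with IL4, without overlap. Mvd fell by 1.76 ± 0.54 in total mRNA (adjusted p = 0.0369) and by 1.87 ± 0.57 on polysomes (adjusted p = 0.0291).

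Mvk, mevalonate kinase, had 4.14, 1.26 and 0.369 CPM in the IFNG polysome libraries and 9.95, 9.92 and 5.29 CPM in the IL4 polysome libraries. The IFNG polysome values rest on 47, 6 and 1 counts. In total mRNA Mvk had 23.0, 20.8 and 6.56 CPM with IFNG and 51.7, 44.7 and 28.1 CPM with IL4. The groups stood apart in both fractions. Mvk fell by 1.92 ± 0.62 on polysomes (adjusted p = 0.039), and its log2 difference of -1.30 ± 0.55 in total mRNA was not called (adjusted p = 0.149, and 0.0272 with the block).

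Fdps, farnesyl diphosphate synthase, had 77.8, 33.2 and 27.7 CPM in the IFNG polysome libraries and 134, 143 and 154 CPM in the IL4 polysome libraries. In total mRNA Fdps had 284, 82.0 and 76.8 CPM with IFNG and 312, 258 and 180 CPM with IL4. Only the polysome groups stood apart, since the first IFNG total library lay among those with IL4. Fdps fell by 1.62 ± 0.51 on polysomes (adjusted p = 0.0359), and its log2 difference in total mRNA was -0.76 ± 0.50 (adjusted p = 0.44). Without that first library the difference in total mRNA was -1.71 (adjusted p = 0.0266).

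Acat2, the cytosolic thiolase of the first step, had 9.89, 10.4 and 0.950 CPM in the IFNG total libraries and 19.4, 31.9 and 36.7 CPM in the IL4 total libraries. On polysomes Acat2 had 6.17, 1.47 and 0.739 CPM with IFNG and 9.40, 7.08 and 10.6 CPM with IL4. All IFNG libraries lay below all IL4 libraries of the same fraction. Acat2 fell by 2.05 ± 0.66 in total mRNA (adjusted p = 0.0482), and its log2 difference of -1.53 ± 0.70 on polysomes was not called (adjusted p = 0.161). Pmvk, phosphomevalonate kinase, overlapped in both fractions, with log2 differences of -0.18 ± 0.57 in total mRNA and -0.73 ± 0.59 on polysomes.

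From squalene onwards, 2 of 12 genes were called lower in each fraction and 0 higher. Cyp51 (chromosome 5, 4080674 to 4104697), the lanosterol demethylase, had 4.44, 1.63 and 4.66 CPM in the IFNG total libraries and 27.5, 24.1 and 18.9 CPM in the IL4 total libraries. On polysomes Cyp51 had 4.76, 3.15 and 2.95 CPM with IFNG and 25.8, 15.2 and 5.67 CPM with IL4. The groups did not overlap, although the third IL4 polysome library came near those with IFNG. Cyp51 fell by 2.70 ± 0.54 in total mRNA (adjusted p = 0.00152) and by 2.09 ± 0.56 on polysomes (adjusted p = 0.0135).

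Sqle, squalene epoxidase, had 6.47, 1.40 and 9.07 CPM in the IFNG total libraries and 20.7, 23.0 and 27.0 CPM in the IL4 total libraries. On polysomes it had 10.1, 3.36 and 2.95 CPM with IFNG and 25.1, 14.2 and 6.81 CPM with IL4. The total groups stood apart and the polysome groups overlapped. Sqle fell by 2.05 ± 0.60 in total mRNA (adjusted p = 0.0286), and its log2 difference of -1.44 ± 0.61 on polysomes was not called (adjusted p = 0.129).

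Lss, which closes squalene epoxide to lanosterol, was called on polysomes and not in total mRNA. It had 23.1, 34.9 and 32.1 CPM in the IFNG polysome libraries and 76.3, 79.0 and 82.5 CPM in the IL4 polysome libraries. In total mRNA Lss had 27.0, 14.4 and 8.20 CPM with IFNG and 43.4, 30.5 and 19.0 CPM with IL4, and these ranges overlapped. Lss fell by 1.40 ± 0.45 on polysomes (adjusted p = 0.0391), and its log2 difference in total mRNA was -0.90 ± 0.44 (adjusted p = 0.244).

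The other 9 genes from squalene onwards were called in neither fraction. Dhcr7, the last reductase of one branch, had no overlap between groups in either fraction, with log2 differences of -1.46 ± 0.54 in total mRNA (adjusted p = 0.0936, and 0.0282 with the block) and -1.33 ± 0.56 on polysomes (adjusted p = 0.126). Hsd17b7, a sterol ketoreductase, also had no overlap in either fraction, with differences of -1.18 ± 0.51 (adjusted p = 0.171) and -1.32 ± 0.53 (adjusted p = 0.104) in the same order. Msmo1, Nsdhl, Ebp, Sc5d and Lbr, which remove methyl groups or move and reduce double bonds, had estimates from -1.10 to -0.24 in total mRNA and from -1.11 to -0.56 on polysomes. Only the joined feature of Ctsb with Fdft1 went the other way in both fractions, at 0.46 ± 0.43 in total mRNA and 0.33 ± 0.43 on polysomes. The joined feature of Tm7sf2 with Vps51 had 0.15 ± 0.43 in total mRNA (-0.013 with a filter at 10 CPM) and -0.48 ± 0.43 on polysomes. Ctsb encodes cathepsin B, a lysosomal protease. Its feature with Fdft1 averaged 11126 CPM in IFNG total and 8115 CPM in IL4 total libraries. No other gene from squalene onwards averaged above 157 CPM (Ebp, IL4 total) in any group. The direction of Fdft1 itself therefore cannot be read from this feature.

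**Figure D2:**
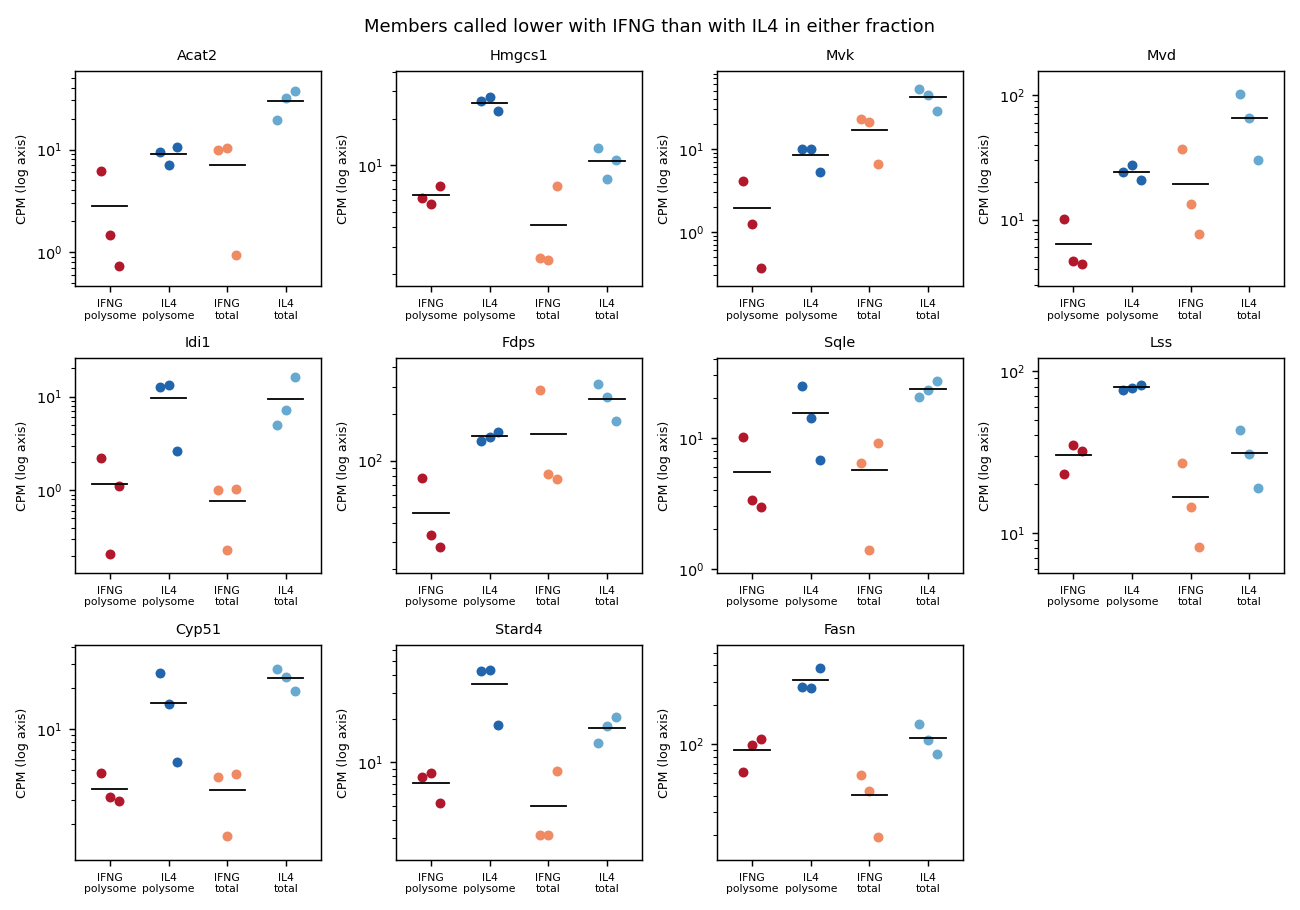
CPM (log axis) of the 11 genes called lower with IFNG in either fraction, in each of the 12 libraries (points) with the group mean (line), for IFNG polysome, IL4 polysome, IFNG total and IL4 total. For Cyp51 the 3 IFNG total points lie from 1.63 to 4.66 CPM and the 3 IL4 total points from 18.9 to 27.5 CPM, while for Fdps the first IFNG total point, at 284 CPM, lies among the IL4 points.

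The 5 genes of the SREBP machinery were not called in either fraction by the model without the replicate block. Srebf2 (chromosome 15, 82147269 to 82205379) had 81.2, 78.4 and 43.7 CPM in the IFNG total libraries and 164, 117 and 90.2 CPM in the IL4 total libraries. On polysomes Srebf2 had 86.1, 122 and 195 CPM with IFNG and 245, 195 and 222 CPM with IL4. Each IFNG library lay below the IL4 libraries of its fraction, on polysomes by a narrow gap. The log2 differences were -0.87 ± 0.42 in total mRNA (adjusted p = 0.227) and -0.72 ± 0.42 on polysomes (adjusted p = 0.281). In a blocked model of the 6 total libraries alone, Srebf2 was called lower (-0.89, adjusted p = 0.0271), and the block in the model of 12 libraries gave no call.

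Insig1, an anchor of SREBP in the endoplasmic reticulum and itself an SREBP2 target, had log2 differences of -0.67 ± 0.42 in total mRNA (adjusted p = 0.418) and -1.27 ± 0.44 on polysomes (adjusted p = 0.056, 0.0345 with the block in the 12 libraries, and 0.0245 with the block in the 6 polysome libraries). Its paralog Insig2 had positive estimates, 0.23 ± 0.52 and 0.73 ± 0.57 in the same order, with overlapping groups. Scap, the escort protein, had 0.22 ± 0.43 and 0.60 ± 0.44. Srebf1, which encodes the SREBP of fatty acid synthesis and is an LXR target, was counted with Rai1: the joined feature had 98.3, 137 and 52.9 CPM in the IFNG total libraries and 117, 96.4 and 54.3 CPM in the IL4 total libraries. On polysomes it had 89.1, 208 and 257 CPM with IFNG and 149, 176 and 203 CPM with IL4. The groups overlapped in both fractions.

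The oxysterol enzyme Ch25h (cholesterol 25-hydroxylase, chromosome 19, 34473783 to 34475148) was far higher with IFNG. It had 1274, 1925 and 1660 CPM in the IFNG total libraries and 191, 89.7 and 222 CPM in the IL4 total libraries. On polysomes Ch25h had 635, 2625 and 2844 CPM with IFNG and 201, 164 and 606 CPM with IL4. The total groups were widely separated, and on polysomes the first IFNG library and the third IL4 library nearly met. Ch25h rose by 3.27 ± 0.60 in total mRNA (adjusted p = 0.000566) and by 2.65 ± 0.58 on polysomes (adjusted p = 0.0032). Without IL4 polysome replicate 3 the polysome difference was 3.48.

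Among 7925 features of at least 10 CPM in 1 group, Lrrc8c (a subunit of volume-regulated anion channels), Treml2, Nectin4 (a cell adhesion protein), Egr3 (a zinc finger transcription factor) and Igtp (an interferon-induced GTPase) had the pattern most like Ch25h. Their Pearson r of log2 CPM with Ch25h over the 12 libraries ran from 0.95 to 0.98, as a description of libraries that share the cytokine split. Igtp averaged 514 ± 237 CPM in IFNG total and 19.7 ± 2.53 CPM in IL4 total libraries (SD, n = 3 each).

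The receptors of the LXR pathway were not called. Nr1h3, which encodes LXR alpha, had 67.1, 51.5 and 16.6 CPM in the IFNG total libraries and 54.5, 32.5 and 12.7 CPM in the IL4 total libraries. On polysomes Nr1h3 had 16.6, 6.94 and 7.39 CPM with IFNG and 11.6, 7.08 and 7.19 CPM with IL4. The groups overlapped in both fractions. Nr1h2, which encodes LXR beta, had log2 differences of 0.58 ± 0.43 in total mRNA and 0.47 ± 0.43 on polysomes.

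Of the LXR targets, Mylip (chromosome 13, 45389742 to 45411940), a ubiquitin ligase that marks lipoprotein receptors for degradation, had the largest fold change of the 38 genes in both fractions. It had 26.2, 38.4 and 37.8 CPM in the IFNG total libraries and 1.60, 3.37 and 3.04 CPM in the IL4 total libraries. On polysomes Mylip had 60.6, 47.7 and 38 CPM with IFNG and 0.954, 3.90 and 4.16 CPM with IL4. The groups were far apart. Mylip rose 12.7-fold in total mRNA (log2 3.67 ± 0.51, adjusted p = 2.38e-05) and 17.6-fold on polysomes (log2 4.14 ± 0.55, adjusted p = 1.72e-05).

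Abcg1 (chromosome 17, 31057694 to 31117984), which exports cholesterol to lipoprotein particles, had 144, 534 and 206 CPM in the IFNG total libraries and 55.0, 50.0 and 36.8 CPM in the IL4 total libraries. On polysomes Abcg1 had 171, 963 and 798 CPM with IFNG and 70.2, 111 and 94.6 CPM with IL4. No IFNG library fell within the range of the IL4 libraries. Abcg1 rose by 2.64 ± 0.57 in total mRNA (adjusted p = 0.00271) and by 2.81 ± 0.57 on polysomes (adjusted p = 0.00171).

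Abca1 (chromosome 4, 53030789 to 53159988), the other LXR-controlled cholesterol exporter of macrophages, had 34.1, 132 and 63.3 CPM in the IFNG total libraries and 66.3, 79.0 and 17.5 CPM in the IL4 total libraries. On polysomes Abca1 had 108, 361 and 272 CPM with IFNG and 296, 279 and 64.3 CPM with IL4. The groups overlapped in both fractions. The log2 difference was 0.49 in total mRNA (95% interval -0.70 to 1.68, adjusted p = 0.773) and 0.21 on polysomes (interval -0.98 to 1.40, adjusted p = 0.868).

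**Figure D3:**
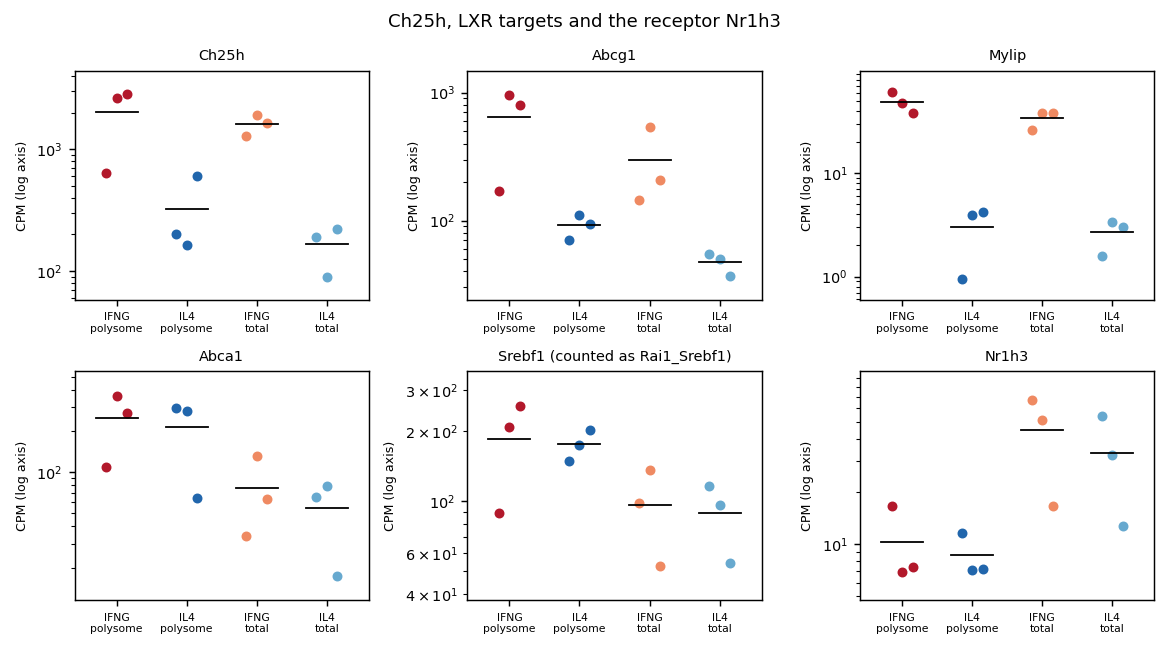
CPM (log axis) of Ch25h, the LXR targets Abcg1, Mylip, Abca1 and Srebf1 (counted with Rai1), and the receptor gene Nr1h3, in each of the 12 libraries (points) with the group mean (line), for IFNG polysome, IL4 polysome, IFNG total and IL4 total. The IFNG points lie above all IL4 points of the same fraction for Ch25h, Abcg1 and Mylip, and the groups overlap for Abca1, Srebf1 and Nr1h3.

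Among the transport and storage genes, Stard4, which carries sterols between membranes and is an SREBP2 target, was lower with IFNG in both fractions. It had 3.11, 3.14 and 8.72 CPM in the IFNG total libraries and 13.6, 17.7 and 20.4 CPM in the IL4 total libraries. On polysomes Stard4 had 7.84, 8.41 and 5.17 CPM with IFNG and 42.6, 43.6 and 18.2 CPM with IL4. The groups did not overlap. Stard4 fell by 1.79 ± 0.49 in total mRNA (adjusted p = 0.0185) and by 2.27 ± 0.51 on polysomes (adjusted p = 0.00368). Soat1, which esterifies cholesterol for storage, had log2 differences of -0.06 ± 0.40 and -0.08 ± 0.40 in the same order. The late endosomal sterol carrier Npc2 had 0.73 ± 0.41 and 0.52 ± 0.41, and the joined feature of Npc1, its membrane partner, had -0.52 ± 0.38 and -0.62 ± 0.38, all uncalled.

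Fatty acid synthesis was represented by 4 genes, of which 1 was called lower in each fraction. Fasn (chromosome 11, 120805958 to 120825166), fatty acid synthase, had 57.9, 43.5 and 19.3 CPM in the IFNG total libraries and 142, 107 and 83.7 CPM in the IL4 total libraries. On polysomes Fasn had 61.0, 98.0 and 110 CPM with IFNG and 275, 269 and 381 CPM with IL4. The groups stood apart in both fractions. Fasn fell by 1.46 ± 0.44 in total mRNA (adjusted p = 0.0317) and by 1.79 ± 0.44 on polysomes (adjusted p = 0.00833). Acaca, the carboxylase that makes malonyl-CoA, also had no overlap but was not called, at -0.91 ± 0.39 in total mRNA (adjusted p = 0.169) and -1.08 ± 0.39 on polysomes (adjusted p = 0.07, and 0.0498 with the block).

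The desaturase Scd2 had 32.8, 45.2 and 70.4 CPM in the IFNG total libraries and 86.4, 104 and 67.5 CPM in the IL4 total libraries. On polysomes Scd2 had 74.8, 106 and 204 CPM with IFNG and 135, 221 and 139 CPM with IL4. The groups overlapped, with log2 differences of -0.80 ± 0.44 in total mRNA and -0.37 ± 0.44 on polysomes. Its paralog Scd1, an LXR target, had 0.18 ± 0.46 and -0.08 ± 0.47.

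The calls of Ch25h, Abcg1 and Mylip in both fractions, of Idi1 and Cyp51 in total mRNA, and of Hmgcs1, Stard4 and Fasn on polysomes held without each of the 12 libraries in turn. In total mRNA, the Acat2 call was lost without IFNG total replicate 1 or 3, or any 1 of the 6 IL4 libraries (adjusted p from 0.0505 to 0.138), and the Mvd call without IFNG total replicate 2 or 3, IL4 polysome replicate 1, or IL4 total replicate 1 or 2 (0.053 to 0.212). The Sqle call was lost without IFNG total replicate 2 or IL4 total replicate 2 or 3 (0.0639 to 0.11), the Stard4 call without IFNG total replicate 1 or 2 or IL4 total replicate 2 or 3 (0.0554 to 0.0911), and the Fasn call without IFNG total replicate 2 or 3 or IL4 total replicate 1 or 2 (0.0771 to 0.134). On polysomes, the Mvk call went when IFNG polysome replicate 2 or 3, IL4 polysome replicate 1 or 2, or IL4 total replicate 2 was left out (0.0505 to 0.144). Mvd and Fdps were each lost without IFNG polysome replicate 2 or 3 or any IL4 polysome library (0.0541 to 0.113 for Mvd, 0.0627 to 0.148 for Fdps). Lss was lost without any 1 of the 6 polysome libraries, IFNG total replicate 2 or IL4 total replicate 2 (0.0555 to 0.1), Idi1 without replicate 2 of IFNG polysome or replicate 1 or 2 of IL4 polysome (0.0517 to 0.0663), and Cyp51 without replicate 2 or 3 of IFNG polysome or replicate 1 of IL4 polysome (0.0501 to 0.102).

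Calls were also gained when 1 library was left out. Without IFNG total replicate 1, Dhcr7 (-2.55, adjusted p = 0.0038), Fdps and Lss (-1.51, adjusted p = 0.0462) were called lower in total mRNA. Without IFNG total replicate 3, Hmgcs1 was called in total mRNA (-2.13, adjusted p = 0.00496) and Insig1 on polysomes (-1.17, adjusted p = 0.0481). Without IFNG polysome replicate 1, Acat2 (-2.94, adjusted p = 0.0158), Sqle (-2.29, adjusted p = 0.0263) and Ebp (-1.78, adjusted p = 0.016) were called on polysomes. Some called differences moved by over 1.5 times when taken as fold changes, with log2 values given in parentheses. On polysomes the fold changes of Mvk (-3.22), Idi1 (-4.05) and Fdps (-2.23) were larger by over 1.5 times without IFNG polysome replicate 1. In total mRNA the same held for Mvd without IFNG total replicate 1 (-2.70) and Stard4 without IFNG total replicate 3 (-2.499). Fold changes smaller by over 1.5 times were those of Idi1 in total mRNA without IL4 total replicate 3 (-2.93) and Cyp51 on polysomes without IL4 polysome replicate 1 (-1.49). The same held for the fold change of Abcg1 in total mRNA without IFNG total replicate 2 (1.82).

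The number of genes called lower in total mRNA was 3 without IFNG total replicate 2, 4 without IL4 total replicate 1 or 3, and 2 without IL4 total replicate 2. On polysomes it was 3 without replicate 2 of IFNG polysome or replicate 1 of IL4 polysome, and 4 without replicate 3 of IFNG polysome or replicate 2 of IL4 polysome. Deviations of same-numbered IFNG and IL4 libraries of 1 fraction correlated, though not every library correlated best with its own number. With the replicate number as a block, 10 genes were called lower in total mRNA, beside 5.60% of all features in that fit, and 11 on polysomes, beside 8.60%. In a blocked model of the 6 total libraries alone, chosen after seeing the data, 17 genes were called lower, beside 11.8% of all features. The added genes were Hmgcs1, Mvk, Fdps, Lss, Lbr, Hsd17b7, Sc5d, Dhcr7, Srebf2 and Scd2, with adjusted p from 7.53e-06 to 0.0434, and Npc2 was added to those higher (adjusted p = 0.0286). The same model of the 6 polysome libraries called 13 lower, beside 9.84% of all features, adding Acat2, Sqle, Dhcr7 and Insig1.

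The fold change of IFNG over IL4 was next compared between the fractions with an interaction term, which asks whether a gene moved differently on polysomes than in total mRNA. None of the 38 genes was called, beside 0% of all features. At an unadjusted p under 0.05 there were 0 of the 38 and 176 of 10421 features, and DESeq2 called 0 of the 38. The interaction estimates of Ch25h (-0.62, 95% interval -2.14 to 0.90), Cyp51 (0.61, -0.86 to 2.08) and Hmgcs1 (-0.61, -1.94 to 0.71) show how wide a difference between fractions could not be detected with 3 libraries a group. A gene called in 1 fraction and not in the other is therefore not shown to differ between them.

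Genes of the same route held different positions in polysome relative to total mRNA, and each gene called with 1 cytokine had an estimate of the same sign with the other. CPM of each fraction is relative to that fraction's own library, so these are relative positions among mRNAs. With IFNG, 6 of the 38 genes were higher in polysome than in total mRNA, beside 8.93% of all features, and 8 were lower, beside 17.0%. With IL4, 7 were higher, beside 13.2%, and 5 were lower, beside 15.9%. The counts of lower genes were near those shares with both cytokines. The median log2 difference of the 38 genes was 0.05 with each cytokine, beside 0 over all features with IFNG and 0.06 with IL4. By that median the 38 genes leaned to neither fraction, although their roles differed. All 4 fatty acid genes had positive estimates with both cytokines (medians 1.35 with IFNG and 1.53 with IL4). Of the 7 mevalonate genes, 5 had negative estimates with each cytokine (medians of the 7 were -1.56 with IFNG and -1.19 with IL4). These contrasts between roles were not tested, and the positions below are those of single genes.

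Acaca had 27.6, 38 and 38.8 CPM in IFNG polysome libraries and 10.1, 10.0 and 8.38 CPM in IFNG total libraries, and 72.1, 57.0 and 91.9 CPM in IL4 polysome libraries and 11.8, 22.4 and 19.3 CPM in IL4 total libraries. Polysome and total libraries did not overlap with either cytokine. Acaca was higher on polysomes by 1.87 ± 0.40 on the log2 scale with IFNG (adjusted p = 0.00266) and by 2.04 ± 0.40 with IL4 (adjusted p = 0.00171). The desaturase Scd1 was higher by 1.33 ± 0.47 with IFNG (adjusted p = 0.0428) and by 1.58 ± 0.48 with IL4 (adjusted p = 0.0177).

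Abca1 was higher on polysomes by 1.69 ± 0.62 with IFNG (adjusted p = 0.0481) and by 1.98 ± 0.63 with IL4 (adjusted p = 0.0228), although its fractions overlapped with both cytokines. Soat1 was higher by 1.18 ± 0.40 (adjusted p = 0.0338) and 1.20 ± 0.40 (adjusted p = 0.029) in the same order. The joined feature of Npc1 was higher by 1.62 ± 0.39 (adjusted p = 0.00552) and 1.71 ± 0.39 (adjusted p = 0.00453). Scd2 was called with IFNG alone (1.37 ± 0.44, adjusted p = 0.0266, and 0.94 ± 0.44 with IL4, adjusted p = 0.106). Fasn (1.48 ± 0.44, adjusted p = 0.0164, and 1.15 ± 0.44 with IFNG, adjusted p = 0.0551) and Lss (1.36 ± 0.45, adjusted p = 0.0269, and 0.85 ± 0.45 with IFNG, adjusted p = 0.16) were called with IL4 alone. The interaction term called none of these estimates different between the cytokines.

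The opposite position was held by several mevalonate enzymes, Ebp, both LXR receptors and Npc2. Mvk averaged 1.92 ± 1.97 CPM in IFNG polysome and 16.8 ± 8.91 CPM in IFNG total libraries, and 8.39 ± 2.68 CPM in IL4 polysome and 41.5 ± 12.1 CPM in IL4 total libraries (SD, n = 3 each). The IFNG polysome values rest on 47, 6 and 1 counts. Mvk was lower on polysomes by a log2 difference of -2.91 ± 0.61 with IFNG (adjusted p = 0.00226) and -2.29 ± 0.58 with IL4 (adjusted p = 0.00735). Ebp, a sterol isomerase, had -2.34 ± 0.55 (adjusted p = 0.00463) and -2.02 ± 0.55 (adjusted p = 0.0103), and Nr1h3 had -2.10 ± 0.56 (adjusted p = 0.01) and -1.92 ± 0.57 (adjusted p = 0.0164). Npc2 had -1.42 ± 0.42 (adjusted p = 0.016) and -1.21 ± 0.41 (adjusted p = 0.0323), and Mvd had -1.56 ± 0.56 (adjusted p = 0.0431) and -1.44 ± 0.54 (adjusted p = 0.0486). Pmvk (-1.74 ± 0.60, adjusted p = 0.0356), Fdps (-1.66 ± 0.51, adjusted p = 0.0203) and Nr1h2 (-1.23 ± 0.43, adjusted p = 0.0402) were called lower with IFNG alone. Hmgcs1, Idi1, Cyp51, Ch25h and Mylip were called in neither direction with either cytokine.

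The calls of Acaca, Mvk and the Npc1 feature with both cytokines, and of Ebp with IFNG, held without each library in turn. With IFNG, the calls of Pmvk, Mvd, Fdps, Nr1h2, Nr1h3, Abca1, Npc2, Soat1, Scd1 and Scd2 were each lost without IFNG polysome replicate 2 and, in another fit, without IFNG total replicate 1. All of these but Nr1h3 were also lost without IFNG polysome replicate 3, and Pmvk, Nr1h2, Soat1, Scd1 and Scd2 without IFNG total replicate 2. The Nr1h2 call went too without IFNG polysome replicate 1, that of Abca1 without IFNG total replicate 3, and those of Abca1 and Scd1 without replicate 1 or 2 of IL4 polysome or of IL4 total. Mvd was lost as well without IL4 polysome replicate 1 or 2 or IL4 total replicate 2, Nr1h2 without replicate 2 of IL4 polysome or IL4 total, and Soat1 without IL4 total replicate 2. In these fits the adjusted p lay between 0.0506 and 0.453. Without IFNG total replicate 1 the fold changes of Mvd (log2 -0.63) and Fdps (log2 -0.73) with IFNG were smaller by over 1.5 times. The fold changes of Mvk (log2 -4.21), Pmvk (log2 -2.56), Fdps (log2 -2.28) and Ebp (log2 -3.57) were larger by over 1.5 times without IFNG polysome replicate 1. The same held for the fold change of Abca1 (log2 2.44) without IFNG total replicate 2. With IL4, Mvd, Npc2, Abca1, Soat1 and Lss were lost without IL4 polysome replicate 1 or 2, and so were Nr1h3 and Scd1 without replicate 2. Without IL4 polysome replicate 3, Mvd, Lss, Ebp, Nr1h3, Npc2 and Fasn were lost. Without IL4 total replicate 1, Mvd, Nr1h3, Abca1, Npc2 and Soat1 were lost, without replicate 2 Mvd, Lss, Npc2, Soat1 and Fasn, and without replicate 3 Lss, Abca1, Soat1, Fasn and Scd1. Mvd was also lost without IFNG polysome replicate 2 and Soat1 without IFNG total replicate 2, and the adjusted p of these IL4 fits lay between 0.0515 and 0.234. The number of genes higher with IFNG ran from 2, without IFNG polysome replicate 2 or 3, to 11, without IFNG polysome replicate 1, and was 3 without IL4 total replicate 2. The number lower with IFNG was 2 without IFNG polysome replicate 2 or IFNG total replicate 1, and 3 without IFNG polysome replicate 3. With IL4, the number higher was 3 or 4 without IL4 polysome replicate 1 or 2 or IL4 total replicate 2 or 3. The number lower with IL4 was 1 without IL4 polysome replicate 3, 2 or 3 without IL4 polysome replicate 1 or 2 or IL4 total replicate 1 or 2, and 8 without IFNG polysome replicate 3.

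**Figure D4:**
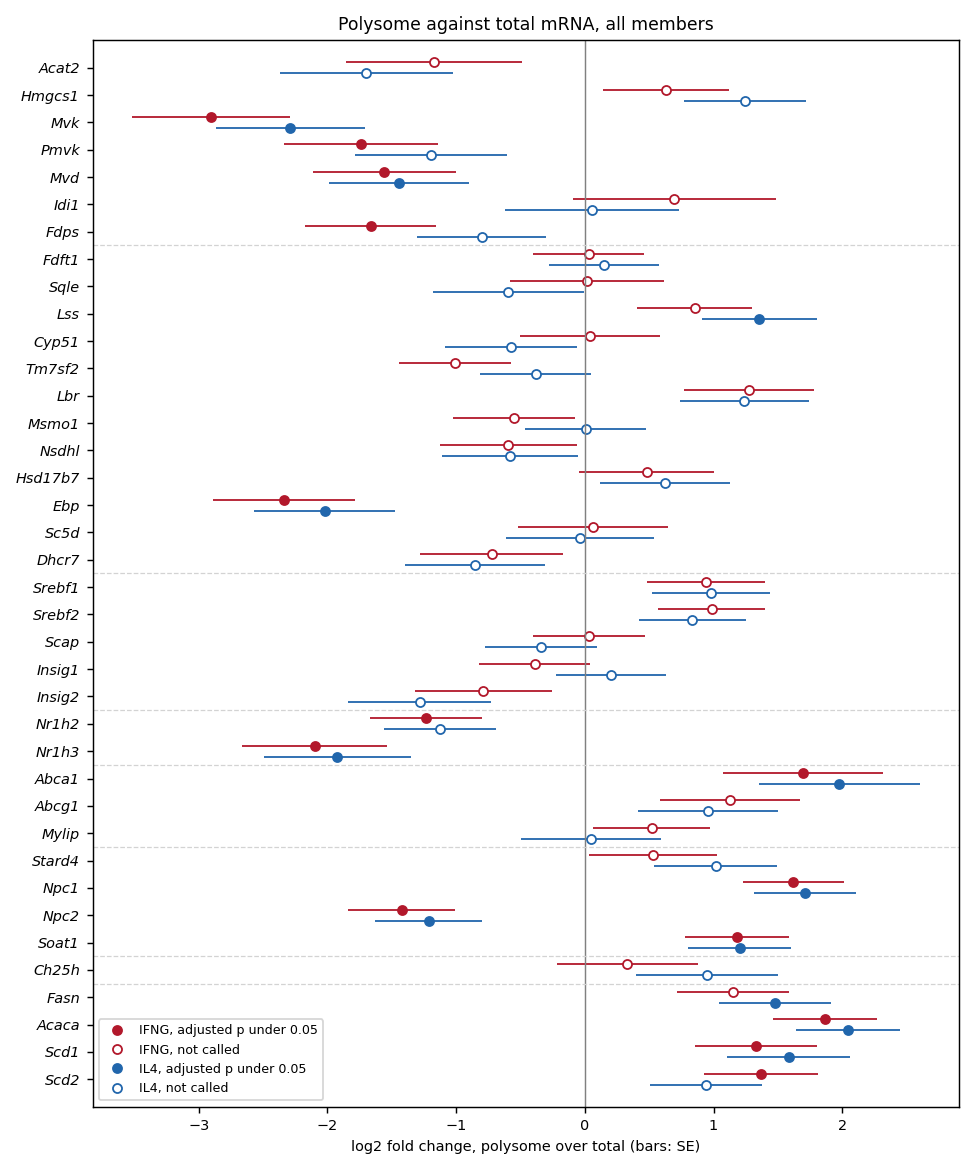
Log2 fold change of polysome over total mRNA (horizontal axis) for the 38 genes, with IFNG (red) and with IL4 (blue), with bars of 1 SE and filled points for calls at an adjusted p under 0.05. Mvk, Ebp and Nr1h3 lie left of 0 and Acaca, Abca1 and the Npc1 feature right of 0 with both cytokines.

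Other genes of the same pathways came from written lists. Of 13 further isoprenoid genes, 0 were called in total mRNA, and 1 was called higher and 0 lower on polysomes. That count was near the 7.54% of all features called higher on polysomes. The called gene, Coq2, of ubiquinone synthesis, rose by 2.57 ± 0.64 on polysomes (adjusted p = 0.00863), and by 4.15 without IL4 polysome replicate 1. On polysomes Coq2 had 7.49, 3.57 and 9.23 CPM with IFNG and 2.04, 0.354 and 0.378 CPM with IL4. The IL4 polysome values rest on 15, 1 and 1 counts, so the size of this rise is uncertain.

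Of 10 further regulators of SREBP, 1 was called higher in total mRNA and 3 on polysomes, and 0 were lower, beside 7.08% of all features higher in total mRNA and 7.54% on polysomes. Rnf139, a ubiquitin ligase of the endoplasmic reticulum, rose by 1.42 ± 0.41 in total mRNA (adjusted p = 0.0264) and by 1.40 ± 0.42 on polysomes (adjusted p = 0.026). Its relative Rnf145 rose by 1.96 ± 0.55 (adjusted p = 0.0184) and Erlin1, a membrane scaffold that works with such ligases, by 1.76 ± 0.45 (adjusted p = 0.0101), both on polysomes. These calls did not hold in every fit that left out 1 library: Rnf139 reached adjusted p = 0.146 in total mRNA, without 1 of 4 libraries, and 0.113 on polysomes, without 1 of 5, Rnf145 reached 0.107, without 1 of 3 (its difference was 2.60 without IL4 polysome replicate 3), and Erlin1 reached 0.0637 without IL4 polysome replicate 2. Of 10 further LXR targets and cofactors, 0 were called in either fraction between the cytokines.

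Of 5 oxysterol genes beyond Ch25h, 3 passed the filter on low counts and were tested. In each fraction 1 was called lower and 0 higher, beside 3.93% of all features lower in total mRNA and 6.58% on polysomes. The result is that of 1 gene. Gpr183, the receptor of a dihydroxylated product of 25-hydroxycholesterol, had 16.9, 10.4 and 17.2 CPM in the IFNG total libraries and 47.8, 59.6 and 84.3 CPM in the IL4 total libraries. On polysomes Gpr183 had 15.2, 14.7 and 17.4 CPM with IFNG and 75.8, 99.9 and 197 CPM with IL4. Gpr183 thus stood apart in the direction opposite to Ch25h. It fell by 2.10 ± 0.43 in total mRNA (adjusted p = 0.00177) and by 2.98 ± 0.45 on polysomes (adjusted p = 7.16e-05), and both calls held without each library in turn.

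Of 15 tested sterol carriers and receptors, 1 was called higher and 0 lower in total mRNA, and 1 higher and 1 lower on polysomes. These counts were near the shares of all features, 7.08% higher in total mRNA, and 7.54% higher and 6.58% lower on polysomes. Stard3, a late endosomal sterol carrier, rose by 1.57 ± 0.50 in total mRNA (adjusted p = 0.0444, up to 0.357 without 1 of 8 libraries) and by 1.73 ± 0.51 on polysomes (adjusted p = 0.0246, up to 0.106 without 1 of 4). Tmem97, a sterol-regulated membrane protein, fell by 1.74 ± 0.50 on polysomes (adjusted p = 0.0211, up to 0.105 without 1 of 3). Of 23 tested genes of fatty acid activation and elongation, 2 were called higher and 1 lower in total mRNA, and 2 higher and 3 lower on polysomes. These are shares near the 7.08% higher and 3.93% lower of all features in total mRNA and the 7.54% higher on polysomes, with 6.58% of all features lower there. The acyl-CoA synthetase Acsl1 had 171, 368 and 199 CPM in the IFNG total libraries and 20.0, 18.6 and 15.2 CPM in the IL4 total libraries. It rose by 3.78 ± 0.46 in total mRNA (adjusted p = 4.24e-06) and by 3.79 ± 0.46 on polysomes (adjusted p = 5.51e-06). Its relative Acsl4 rose by 1.96 ± 0.41 in total mRNA (adjusted p = 0.00221). Mid1ip1, an activator of acetyl-CoA carboxylase, fell by 1.91 ± 0.41 in total mRNA (adjusted p = 0.00292) and by 1.79 ± 0.42 on polysomes (adjusted p = 0.00601), and the elongase Elovl5 fell by 2.00 ± 0.40 on polysomes (adjusted p = 0.00135). These calls of Acsl1, Acsl4, Mid1ip1 and Elovl5, and that of Coq2, held without each library in turn.

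Depth and cell markers bear on these values as follows. Total counts ran from 3189688 to 8789480 in IFNG polysome, 2563955 to 5546605 in IL4 polysome, 10443200 to 22014162 in IFNG total and 12348819 to 16603339 in IL4 total libraries. One feature, Lars2, held 1.78 to 29.3% of the counts of IFNG polysome libraries and 5.15 to 18.1% of those of IL4 polysome libraries. Without Lars2 the median polysome difference of all features moved to 0.06, and the Mvk, Fdps and Lss calls on polysomes were lost (adjusted p from 0.0514 to 0.0617), with log2 differences of -1.81, -1.51 and -1.28 in the same order. All 10 macrophage markers were present, with summed levels of 16421 to 28448 CPM in IFNG total and 9518 to 18425 CPM in IL4 total libraries, and of 11269 to 17106 CPM in IFNG polysome and 8543 to 9117 CPM in IL4 polysome libraries, and 1 was called higher in total mRNA and 3 on polysomes. The 6 dendritic cell markers summed to 8.50 to 26.9 CPM in IFNG total and 0.552 to 1.23 CPM in IL4 total libraries, and to 17.2 to 44.6 CPM in IFNG polysome and 0.681 to 1.42 CPM in IL4 polysome libraries, with Flt3 at 0 in all groups, and 2 were called higher with IFNG in each fraction. The 8 neutrophil markers summed to 10.5 to 32.0 CPM in IFNG total and 1.33 to 4.97 CPM in IL4 total libraries, where 1 was called higher, and to 3.99 to 8.13 CPM in IFNG polysome and 1.23 to 11.3 CPM in IL4 polysome libraries, where 0 were called. The 4 osteoclast markers summed to 31.0 to 124 CPM in IFNG total and 66.7 to 167 CPM in IL4 total libraries, and to 19.2 to 27.3 CPM in IFNG polysome and 22.7 to 80.7 CPM in IL4 polysome libraries, and 1 was called lower in each fraction. Markers of T and NK cells were at 0 in every library, and those of B cells, erythroid cells and mast cells with basophils summed to at most 0.817 CPM. Stromal markers summed to at most 40.8 CPM and adipocyte markers to at most 1.16 CPM. The part of these shifts in the gene differences above was not tested.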

How the data were processed

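Whole-number counts of reads per gene symbol were deposited unnormalized, per the file headers. Beside them, per the file headers, stand log2 values after the authors' TMM scaling. The submitters' processing notes name HISAT2, HISAT, limma and mm10, and no versions. No counter, strand setting or annotation is given in the sources used here, so overlapping and antisense genes cannot be told apart.

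The counts were tested with edgeR 4.0.16 in R 4.3.3: filterByExpr over the 4 groups, TMM scaling and 1 robust quasi-likelihood model of all 12 libraries without covariates, with Benjamini-Hochberg adjustment over 10421 features. Fold changes carry the SE, |log2 fold change| / √F. The 5 comparisons were IFNG against IL4 in each fraction, their interaction, and polysome against total mRNA with each cytokine. Groups and replicate numbers came from the labels. Deviations of same-numbered IFNG and IL4 libraries correlated (r 0.153 to 0.745 in total mRNA, 0.153 to 0.352 on polysomes, all above 0.1). In total mRNA 4 of 6 libraries correlated best with their own number, and on polysomes 5 of 6. The labels do not say that the numbers mark pairs, and the main model did not use the numbers.

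The genes and lists were chosen with earlier results of these data known, and 1 gene of the other lists is not reported here. Library values are given for members called between the cytokines and for Ch25h, Abca1, Abcg1, Srebf1, Srebf2, Nr1h3, Fasn and Scd2 (Acaca was added after its values were seen), and, of other lists, for at most 3 called genes per comparison with 10 CPM in 1 group. Alternatives used RLE factors, DESeq2 1.42.0, limma 3.58.1 (voom, and the authors' log2 values), other filters, the 6 libraries compared, a replicate block, Lars2 removed and each library left out. The model was tested on simulated data. Positions and promoters come from RefSeq on GRCm38, the assembly of mm10.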

Additional observations from a re-analysis of the deposited data

How the results depend on the processing

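The genes called higher with IFNG in either fraction numbered 3 in every fit but one (4 in the blocked fit of 6 total libraries), and the interaction had 0 calls in all 20 fits run. Leaving out 1 library gave 2 to 8 genes lower and 3 to 3 higher in total mRNA, 3 to 11 lower and 3 to 3 higher on polysomes, 2 to 11 higher and 2 to 10 lower for polysome against total mRNA with IFNG, and 3 to 8 higher and 1 to 8 lower with IL4. The blocked fit of the 6 libraries compared gave 17 lower in total mRNA, and 12 higher and 9 lower for polysome against total mRNA with IL4. Only the 6 libraries compared gave 3 higher with IFNG and 10 lower with IL4, limma voom 3 lower with IL4, and removing Lars2 8 lower with IL4. The cause was not tested. The median of the 20 SREBP2 targets ran from -1.54 to -0.94 in total mRNA and from -1.81 to -1.11 on polysomes over all fits.

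Other settings also moved calls: voom lost Mvk, Mvd and Cyp51 on polysomes (adjusted p = 0.094, 0.073 and 0.0505), and the 6-library fit lost Mvk on polysomes (0.0761) and Mvd in total mRNA (0.0575). Calls were also gained. In total mRNA, Hmgcs1 was called by DESeq2 (0.0227), voom (0.0314), the authors' log2 values (0.0486) and with a filter at 10 CPM (0.0474), Dhcr7 by voom (0.0201), the authors' log2 values (0.0447) and without a filter (0.0257), and Mvk by voom (0.0452). On polysomes, Insig1 was called by DESeq2 (0.029) and the authors' log2 values (0.0487), and Acaca by DESeq2 (0.034).

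Uncalled log2 differences near 0 changed sign. With a filter at 10 CPM, Tm7sf2 (with Vps51) had -0.013 and Srebf1 (with Rai1) -0.0491 in total mRNA, and Soat1 had 0.0169 and Scd1 0.0203 on polysomes. On polysomes, Soat1 had 0.0497 and Scd1 0.0481 without Lars2, Soat1 0.0262 and Scd1 0.0271 with only the 6 libraries, and Soat1 0.0297 with the replicate block added to those 6. Srebf1 had -0.053 by voom and -0.0544 by the authors' log2 values on polysomes. Leaving out 1 library changed the sign in total mRNA for Pmvk (-0.644 to 0.115), Tm7sf2 (-0.283 to 0.456), Srebf1 (-0.2999 to 0.354), Scap (-0.24 to 0.439), Nr1h3 (-0.0173 to 0.992), Abca1 (-0.232 to 0.866), Soat1 (-0.256 to 0.0428) and Scd1 (-0.142 to 0.367). It did so on polysomes for Srebf1 (-0.159 to 0.406), Nr1h3 (-0.292 to 0.565), Abca1 (-0.22 to 0.571), Soat1 (-0.268 to 0.193) and Scd1 (-0.406 to 0.144).

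Polysome and total libraries of one number did not all correlate (r -0.07 to 0.43 with IFNG, 0.02 to 0.40 with IL4), and 4 and 2 of 6 libraries correlated best with their own number. There the replicate block gave 8 higher and 8 lower with IFNG and 9 higher and 7 lower with IL4. Counts of lowly expressed genes such as Idi1 limit these differences.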
